A study of Mus musculus with 4 samples.

Results

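Fatty acids enter the hepatocyte from plasma and are bound in the cytosol before they are oxidised, esterified or secreted, and the 6 genes described here encode proteins of that route: the membrane receptor Cd36, the fatty acid binding proteins Fabp1, Fabp2, Fabp4 and Fabp5, and the acyl-CoA synthetase Slc27a2. Members were all probe sets whose annotation holds 1 of these gene symbols and no other. This gave 13 of the 22626 probe sets and 6 of the 12393 genes with a symbol of their own. All of them were measured in liver total RNA of 4 male ABCA1-TG mice of strain C57BL/6, aged 5 to 6 months and fed the NIH36 diet, with 1 array per biological replicate (mouse 1 to mouse 4). ABCA1-TG denotes transgenic overexpression of ABCA1, the transporter that loads cholesterol and phospholipid onto apolipoprotein A-I. All 4 carry an LDL receptor defect that the series title writes as -/- and the sample descriptions as +/-, so its dose is unsettled here. The promoter of the transgene and the species of its sequence are not given in the sources used here. The design names wild-type controls, no wild-type array was analysed here, and every difference below is between transgenic mice. The genes were grouped with earlier results of these arrays known, so their differences between mice are a description without a test.

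CD36 is a surface glycoprotein that promotes uptake of long-chain fatty acids, and in liver it is made by hepatocytes, Kupffer cells and endothelium. The fatty acid binding proteins are small cytosolic carriers, each named for the tissue where it was first found: FABP1 in liver, FABP2 in intestine, FABP4 in adipocytes and macrophages, and FABP5 in epidermis. SLC27A2, also called FATP2, transports fatty acids and activates very long chain fatty acids to acyl-CoA. Fatty acids are ligands of the nuclear receptor PPAR-alpha, which drives Fabp1, Cd36 and Slc27a2 among many genes of fatty acid oxidation.

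Most of these genes were lowest in mouse 3, and Fabp5 was highest there. On the probe set of highest mean level of each gene, 5 of the 6 genes, namely Cd36, Fabp1, Fabp2, Fabp4 and Slc27a2, had their lowest level in mouse 3. Mouse 3 lay furthest from the other mice for Cd36, Fabp5 and Slc27a2, whereas mouse 2 did for Fabp1 and Fabp4 and mouse 1 for Fabp2. Over all 12393 genes, 20.4% had their lowest level and 33.5% their highest level in mouse 3. Probe sets of 1 gene did not always follow this: of the 13 probe sets, 7 were lowest and 5 highest in mouse 3, and 3 of those 5 measured Fabp4. Levels below are log2 of the deposited signal intensity, differences are log2 units, and the spread is the SD over the 4 mice. Levels are compared between mice within a probe set and not between probe sets, which bind with different strength.

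**Figure D1:**
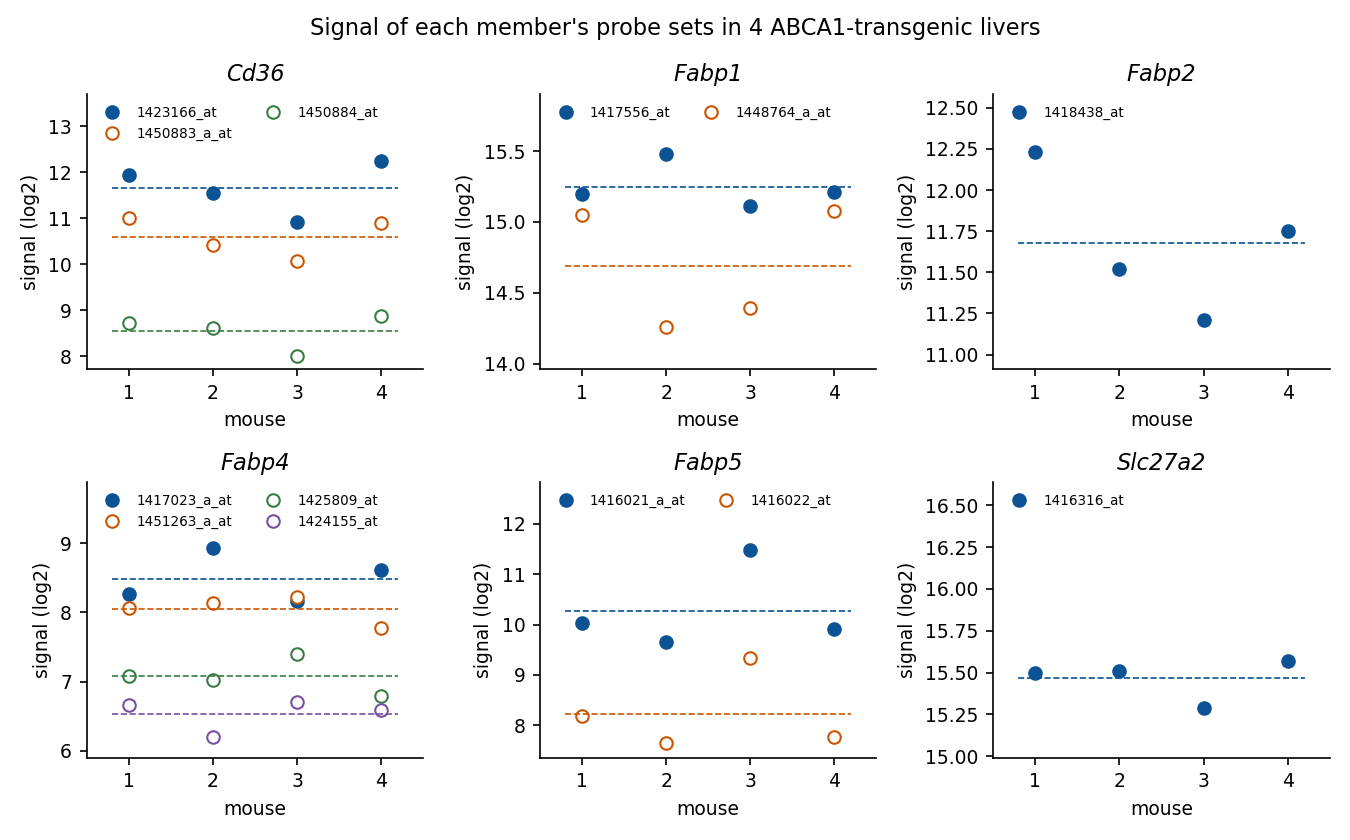
Log2 signal (y axis, scaled per panel) of every probe set of the 6 genes in mouse 1 to mouse 4 (x axis), with filled points for the probe set of highest mean level of a gene, open points for its other probe sets and dashed lines at each mean over 4 mice. All 3 Cd36 probe sets are lowest in mouse 3 and both Fabp5 probe sets highest there, while the 2 Fabp1 probe sets part in mouse 2, at 15.48 and 14.26.

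Cd36, the membrane receptor, was lowest in mouse 3 on all 3 of its probe sets. On 1423166_at it measured 11.95, 11.56, 10.93 and 12.24 in mice 1 to 4 (11.67 ± 0.57, SD, n = 4), so that mouse 4 lay 2.48-fold above mouse 3. Mouse 3 lay 0.99 below the mean of the other mice, which were 1.98-fold higher. On 1450883_a_at the levels were 11.01, 10.42, 10.08 and 10.91, and on 1450884_at 8.72, 8.62, 8.02 and 8.88. The order of mice 1 and 4 changed between probe sets, whereas mouse 2 lay below both of them and above mouse 3 on each. Mouse 3 lay 0.69 and 0.72 below the others on these probe sets. Without mouse 3 the SD of 1423166_at was 0.34. Macrophage markers, of cells that also make CD36, were higher in mouse 3 than in the other mice in 8 of 8 genes, with a median difference of 0.18, where the median of all genes was 0.09. They were higher still in mouse 4, where Cd36 was highest on 2 probe sets, with a median difference of 0.29 and 5 of 8 genes at their highest level, and their part in the Cd36 levels was not tested. Endothelial markers were higher in mouse 3 than in the other mice in 4 of 8 genes, with a median difference of 0.07. Hepatocyte markers were higher there in 0 of 7 measured genes, with a median difference of -0.05. The part of these 2 cell types was not tested either. In bulk tissue, fewer cells of a type and less RNA per cell cannot be told apart.

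Fabp2, the intestinal fatty acid binding protein, had 1 probe set and its lowest level in mouse 3. It measured 12.23, 11.52, 11.21 and 11.75 in mice 1 to 4 (11.68 ± 0.43, SD, n = 4), and mouse 1 lay 2.03-fold above mouse 3. Mouse 1 stood above the rest by 0.74 and mouse 3 below the rest by 0.62, and without mouse 1 the SD was 0.27. Of 7 small intestine markers measured, 6 had a mean log2 level under 8, and the exception was Apoa4, which mouse liver also makes. Of the 7, 6 were higher in mouse 1 than in the other mice, as Fabp2 was. Lct, the brush border lactase, was highest in mouse 1 and measured 6.87, 4.10, 6.31 and 6.43 in mice 1 to 4. Vil1, the actin bundler of the brush border, was highest in mouse 2 and measured 3.73, 6.39, 4.19 and 3.81. The median of the 7 lay 0.23 above the other mice in mouse 1 and 0.22 below them (-0.22) in mouse 3, and their part in the Fabp2 levels was not tested.

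Fabp1, the main fatty acid carrier of the hepatocyte cytosol, gave different orders of the mice on its 2 probe sets. On 1417556_at it measured 15.20, 15.48, 15.11 and 15.21 (15.25 ± 0.16, SD, n = 4), highest in mouse 2 and within 1.29-fold over the mice. On 1448764_a_at it measured 15.05, 14.26, 14.39 and 15.08 (14.69 ± 0.43, SD, n = 4), lowest in mouse 2 and 1.76-fold higher in mouse 4 than there. Mouse 2 therefore lay 0.31 above the other mice on the first and 0.57 below them on the second. Without mouse 2 the SD of the first fell to 0.06. On the second probe set mice 1 and 4 were high and mice 2 and 3 low. Hepatocyte markers such as albumin were higher in mouse 2 than in the others in 7 of 7 measured genes. Their median difference was 0.14, where the median of all genes was 0.06. Their summed signal ran from 330700 in mouse 3 to 376304 in mouse 2, and their part in the Fabp1 levels was not tested.

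Slc27a2 had the smallest SD of the 6 genes on main probe sets. It measured 15.50, 15.51, 15.29 and 15.57 in mice 1 to 4 (15.47 ± 0.12, SD, n = 4), so mouse 3 lay 0.24 below the others and 1.21-fold below mouse 4. Mice 1, 2 and 4 were close to each other, with an SD of 0.04 without mouse 3. Hepatocyte markers were higher in mouse 3 in 0 of 7 genes (median difference -0.05), and their part in the Slc27a2 levels was not tested. The array medians differ by up to 0.192 log2, and with the arrays shifted to the same median the SD was 0.20, above the 0.16 of Fabp1, and mouse 3 lay 0.35 below the others. With means over all probe sets of a gene the smallest SD was that of Fabp4, at 0.08.

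Upstream sequence was matched by symbol in RefSeq promoter windows (GRCm38.p6) for Cd36, Fabp1, Fabp2 and Slc27a2, 4 of the 6 genes. The 250 bases before the annotated start were searched on both strands for AGGTCA (reverse complement TGACCT), the hexamer bound by nuclear receptors, for TGACCT followed after 1 base by TGNCCT, a direct repeat of that hexamer whose second copy is imperfect, for TATAAA, for the GC box GGGCGG, for GTTAAT, part of the HNF1 site, and for TCACNCCAC, a sterol regulatory element. The first motif overlaps the repeat. Windows of Cd36, Fabp1 and Slc27a2 are shown because PPAR-alpha is known to act on these genes and because each was lowest in mouse 3 on its main probe set. They lie at chr5:17835897-17836146 on the minus strand, chr6:71199629-71199878 on the plus strand and chr2:126552774-126553023 on the plus strand. Capitals mark the matches.
Cd36: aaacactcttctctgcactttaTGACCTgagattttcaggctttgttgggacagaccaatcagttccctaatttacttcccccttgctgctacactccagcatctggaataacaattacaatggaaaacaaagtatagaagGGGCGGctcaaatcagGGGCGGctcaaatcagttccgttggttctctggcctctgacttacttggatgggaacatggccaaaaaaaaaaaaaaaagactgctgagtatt
Fabp1: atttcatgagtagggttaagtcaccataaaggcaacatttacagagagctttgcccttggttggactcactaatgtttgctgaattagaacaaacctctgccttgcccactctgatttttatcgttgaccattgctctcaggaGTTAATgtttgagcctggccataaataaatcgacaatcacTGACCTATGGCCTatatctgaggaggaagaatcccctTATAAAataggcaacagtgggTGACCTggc
Slc27a2: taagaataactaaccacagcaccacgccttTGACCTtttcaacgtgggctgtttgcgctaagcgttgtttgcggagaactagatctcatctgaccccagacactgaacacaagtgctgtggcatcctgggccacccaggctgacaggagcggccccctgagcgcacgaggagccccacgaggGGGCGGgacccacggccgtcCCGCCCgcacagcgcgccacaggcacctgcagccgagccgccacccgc
AGGTCA or its complement occurs in all 3, and 14% of the 32851 windows in the table hold it. The Fabp1 window also holds TGACCTATGGCCT, from 67 to 55 bases before the start, a match to the direct repeat that 0.0822% of windows have. It further holds GTTAAT (6.43% of windows) and TATAAA (12.4% of windows), the latter from 30 to 25 bases before the start. GGGCGG, in 32.7% of windows, occurs at 2 places in Cd36 and at 2 in Slc27a2. In Cd36 both lie in a stretch of 16 bases, aggggcggctcaaatc, that occurs at 111 and again at 95 bases before the start. Cd36 has further annotated starts, and this window belongs to 1 of them. TCACNCCAC, in 1.05% of windows, was in none of the 4, and the Fabp2 window held none of the 6 motifs. These matches are letters in a window and are not evidence of binding.

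Fabp5, the epidermal fatty acid binding protein, had the widest spread of the 6 genes. On 1416021_a_at it measured 10.03, 9.65, 11.49 and 9.92 in mice 1 to 4 (10.27 ± 0.83, SD, n = 4). On 1416022_at it measured 8.19, 7.65, 9.33 and 7.76 (8.23 ± 0.77, SD, n = 4). Mouse 3 was the highest and mouse 2 the lowest on both, 3.59-fold and 3.21-fold apart. Mouse 3 lay 1.63 above the mean of the other mice on the first probe set (3.1-fold) and 1.46 above on the second (2.75-fold). Without mouse 3 the SD on the first was 0.19, so the spread of Fabp5 rested on that mouse.

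Markers of squamous epithelium, where FABP5 is abundant, were also high in mouse 3. The esophageal keratin Krt4 measured 5.11, 5.90, 11.24 and 4.74 in mice 1 to 4, and its partner Krt13 measured 6.68, 3.67, 9.12 and 5.06. Lor, the cornified envelope protein loricrin, measured 8.98, 8.71, 10.75 and 8.29. The basal keratin Krt5 was also highest in mouse 3, at 8.16 against 6.03 to 7.69, and Krt10 was at 7.48 against 6.96 to 7.37. Krt14, Krt1 and Sprr1a were not highest in that mouse, so 5 of 8 markers were. Their summed signal was 5729 in mouse 3 against 1140 to 1544 in mice 1, 2 and 4. Only Lor had a mean level of 8 or more, and the part of these transcripts in the Fabp5 level was not tested. Across the other mice Krt5 and Krt13 had the order of Fabp5, with mouse 1 highest, mouse 4 next and mouse 2 lowest. Of the 8 markers 5 were instead lowest in mouse 4, Krt4 and Lor among them.

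Fabp4, the carrier of adipocytes and macrophages, was highest in mouse 2 on 1 of its 4 probe sets. On 1417023_a_at it measured 8.26, 8.93, 8.17 and 8.61 in mice 1 to 4 (8.49 ± 0.35, SD, n = 4), with mouse 2 at 1.5-fold the mean of the others. The other 3 probe sets, with mean levels of 8.05, 7.08 and 6.54, did not show this and were highest in mouse 3. On 1451263_a_at, for example, the levels were 8.06, 8.14, 8.23 and 7.78. Averaged over the 4 probe sets, Fabp4 had an SD of 0.08 and mouse 2 lay 0.04 above the others. The hormone adiponectin, from Adipoq, a defining adipocyte product, measured 5.56, 7.61, 6.46 and 6.08 in mice 1 to 4. The adipocyte hormone gene Retn measured 7.02, 8.89, 8.19 and 7.51. The lipid droplet gene Cidec was instead lowest in mouse 2, at 8.90, 7.82, 7.94 and 8.94, and Lipe and Lpl were highest in mouse 3. Of 6 adipocyte markers 3 were highest in mouse 2 (Adipoq, Retn and Lep), their median there lay 0.81 above the other mice, and their summed signal ran from 2442 in mouse 1 to 3659 in mouse 2. Only 3 of the 6, Cidec, Lipe and Lpl, had a mean level of 8 or more. Macrophage markers were higher in mouse 2 in 2 of 8 genes. The part of either cell type in the Fabp4 level was not tested.

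**Figure D2:**
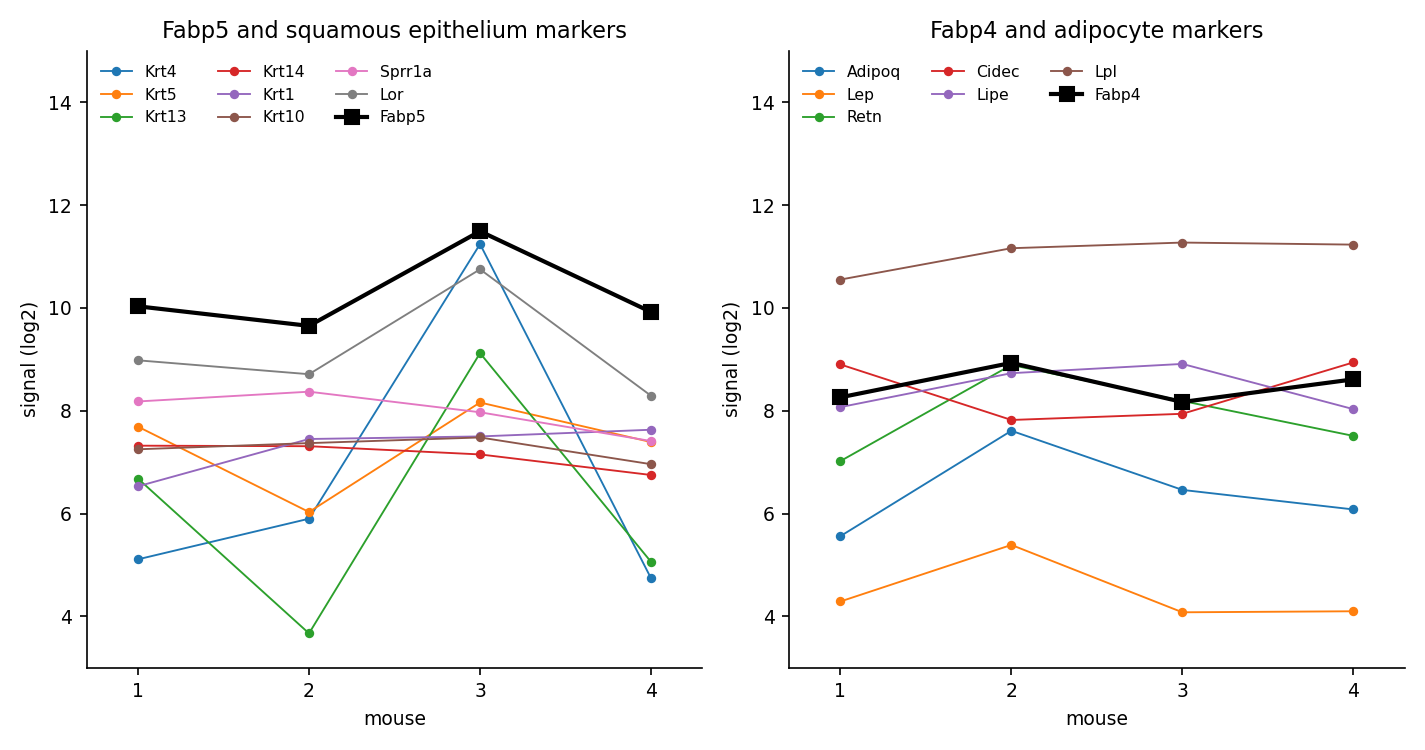
Log2 signal (y axis) in mouse 1 to mouse 4 (x axis) for Fabp5 with 8 squamous epithelium markers (left) and for Fabp4 with 6 adipocyte markers (right); the thick black line is the carrier gene, and lines only join the values of 1 gene. Fabp5, at 11.49, Krt4, at 11.24, Krt13 and Lor peak in mouse 3, and Fabp4 (8.93), Adipoq and Retn in mouse 2.

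Fabp4 and Fabp5 are neighbours on mouse chromosome 3, with 2 other protein-coding genes, Pmp2 and Fabp9, between them in RefSeq. On their main probe sets mice 2, 3 and 4 differed from the other mice in opposite directions: mouse 3 lay 1.63 above the others for Fabp5 and 0.43 below for Fabp4, and mouse 2 lay 0.83 below for Fabp5 and 0.58 above for Fabp4. Mouse 4 lay 0.47 below for Fabp5 and 0.15 above for Fabp4. For Fabp4 this rested on 1 of its 4 probe sets: mouse 3 lay 0.21 to 0.43 above the others on the other 3, and with the mean over its probe sets mouse 3 lay 0.11 above and mouse 4 0.13 below the others (-0.13), the same directions as for Fabp5.

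The spread between mice was set against that of all probe sets. With limma, a prior SD was fitted as a function of mean level, and the SD of a probe set divided by it is called the relative spread. It was 4.26 and 2.68 for the Fabp5 probe sets, 3.34 and 1.32 for Fabp1, 3.29, 2.28 and 1.43 for Cd36, 2.50 for Fabp2 and 1.03 for Slc27a2. For Fabp4 it was 1.30 on the probe set of highest mean and 0.41 to 0.64 on the others. With 1 prior for all levels in place of 1 that follows the mean, it was 2.00 for Cd36, 1.52 for Fabp2, 0.56 for Fabp1 and 0.43 for Slc27a2 on main probe sets. The median was 1.43 over the 13 member probe sets and 0.97 over all 22626. With adjustment over all probe sets (limma, Benjamini-Hochberg), 0 of 13 members had an adjusted p under 0.05, against 0% of all probe sets. At an unadjusted p under 0.05 there were 5 of 13, for Fabp5 (2), Cd36, Fabp2 and Fabp1, against 3.71% of all probe sets. The members were grouped with these arrays in view, so nothing is read from that difference. The highest mouse lay at least 2-fold above the lowest in 4 of the 13, against 32.4% of all probe sets, many of them at low levels. Of the 11 member probe sets with a mean level of 8 or more, 4 differed at least 2-fold between the highest and lowest mouse, against 6.2% of the 11796 probe sets at such levels.

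**Figure D3:**
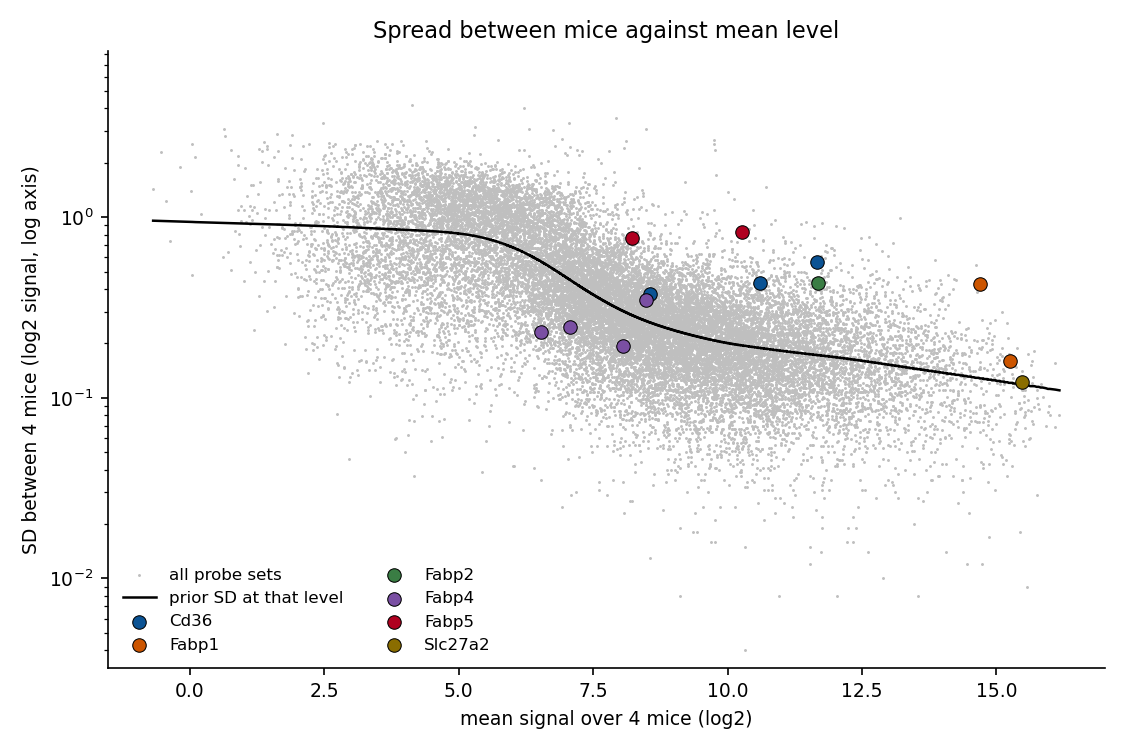
SD of log2 signal between the 4 mice (y axis, log scale) against mean log2 signal (x axis) for all 22626 probe sets (grey) and the 13 member probe sets (coloured by gene), with the prior SD at each level as a black line. Fabp5 (SD 0.83 and 0.77) and Cd36 (0.57 on 1423166_at) lie above the line, Slc27a2 (0.12) on it and 3 Fabp4 probe sets below it.

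Other genes of fatty acid uptake and binding did not move together. Of 17 measured, 0 had an adjusted p under 0.05 and 1, Fabp7, an unadjusted p under 0.05 (3.7% of all genes on their main probe sets), and their median relative spread was 0.75 against 0.96 over all genes. Slc27a5, the bile acyl-CoA synthetase of liver, measured 14.82, 14.88, 14.98 and 14.95, and so was not lowest in mouse 3 as Slc27a2 was. Slc27a4 was lowest in mouse 1, at 9.19 against 9.43 to 9.74, and Slc27a1, a transporter of muscle and fat, ran from 7.75 in mouse 4 to 8.83 in mouse 3. Rbp4, the plasma retinol carrier, measured 15.63 ± 0.06 (SD, n = 4). Fabp3, the muscle carrier, was lowest in mouse 1, at 6.55 against 7.69 to 7.94. Skeletal muscle markers divided in the same way, with 6 of 6 lowest in mouse 1 and a summed signal of 440 there against 5474 to 7847, and their part in the Fabp3 level was not tested. Fabp3, Fabp6, Fabp7 and Slc27a3 had mean levels under 8, and Fabp7 measured 7.67, 4.60, 7.65 and 7.40.

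Most PPAR-alpha targets outside the 6 genes were lowest in mouse 3, as Cd36, Fabp2 and Slc27a2 were. Of 15 targets measured, 9 were lowest there, against 20.4% of all genes. Their median in mouse 3 lay 0.15 below the other mice (-0.15), with 4 of 15 higher, while the median of all genes lay 0.09 above. In mouse 2 their median lay 0.17 below (-0.17), with 5 of 15 higher, and without mouse 2 the median of mouse 3 was -0.36. Cyp4a14, a fatty acid hydroxylase, measured 14.07, 13.41, 11.78 and 13.55, and Acot1, an acyl-CoA thioesterase, 12.19, 11.50, 10.06 and 11.70. Acadm, a mitochondrial dehydrogenase, measured 14.62 ± 0.08 (SD, n = 4). Mouse 2 was lowest in the other 6 of the 15, and mice 1 and 4 in 0. Mice 2 and 3 were also the 2 lowest for Cd36 on all 3 probe sets, for Fabp2 and for the second Fabp1 probe set. The main Fabp1 and Fabp4 probe sets were instead highest in mouse 2, at 15.48 and 8.93. Slc27a2 measured 15.51 in mouse 2 against 15.50 in mouse 1. The part of PPAR-alpha in the levels of the members was not tested. With adjustment over all probe sets 0 of the 15 targets passed (limma). At an unadjusted p under 0.05 there were 4 of 15 (Cyp4a14, Acot1, Vnn1 and Ehhadh), against 3.7% of all genes on their main probe sets. These targets are chosen from the literature on PPAR-alpha, and the list was fixed with earlier results for Cyp4a14 and Acot1 known.

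Acyl-CoA synthetases and thioesterases did not move together. Of 13 measured, 5 were higher in mouse 3 than in the other mice, and the median difference was -0.04. Over all genes 7415 of 12393 were higher there, and the median difference was 0.09. Mouse 3 was the lowest in 5 of the 13, against 20.4% of all genes. With limma, 0 passed after adjustment and 2 had an unadjusted p under 0.05, against 3.7% of all genes on their main probe sets. Those 2 were the thioesterases Acot1 and Acot3, and Acot3 measured 10.56, 10.32, 8.48 and 9.77. Acsl4, a long-chain acyl-CoA synthetase, measured 9.98 ± 0.05 (SD, n = 4). Of 17 known regulators, 0 passed after adjustment and 1, Pparg, had an unadjusted p under 0.05 (limma), against the same 3.7% of all genes. Hnf4a, a nuclear receptor of hepatocyte identity, measured 14.25 ± 0.05 (SD, n = 4). Ppargc1a, a coactivator of PPAR-alpha, measured 8.93, 9.20, 8.16 and 8.93 and was lowest in mouse 3. Ppara itself measured 11.19, 10.67, 10.51 and 10.56, highest in mouse 1. Foxa1, a pioneer factor of liver, was lowest in mouse 1, at 10.36 against 11.01 to 11.26.

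**Figure D4:**
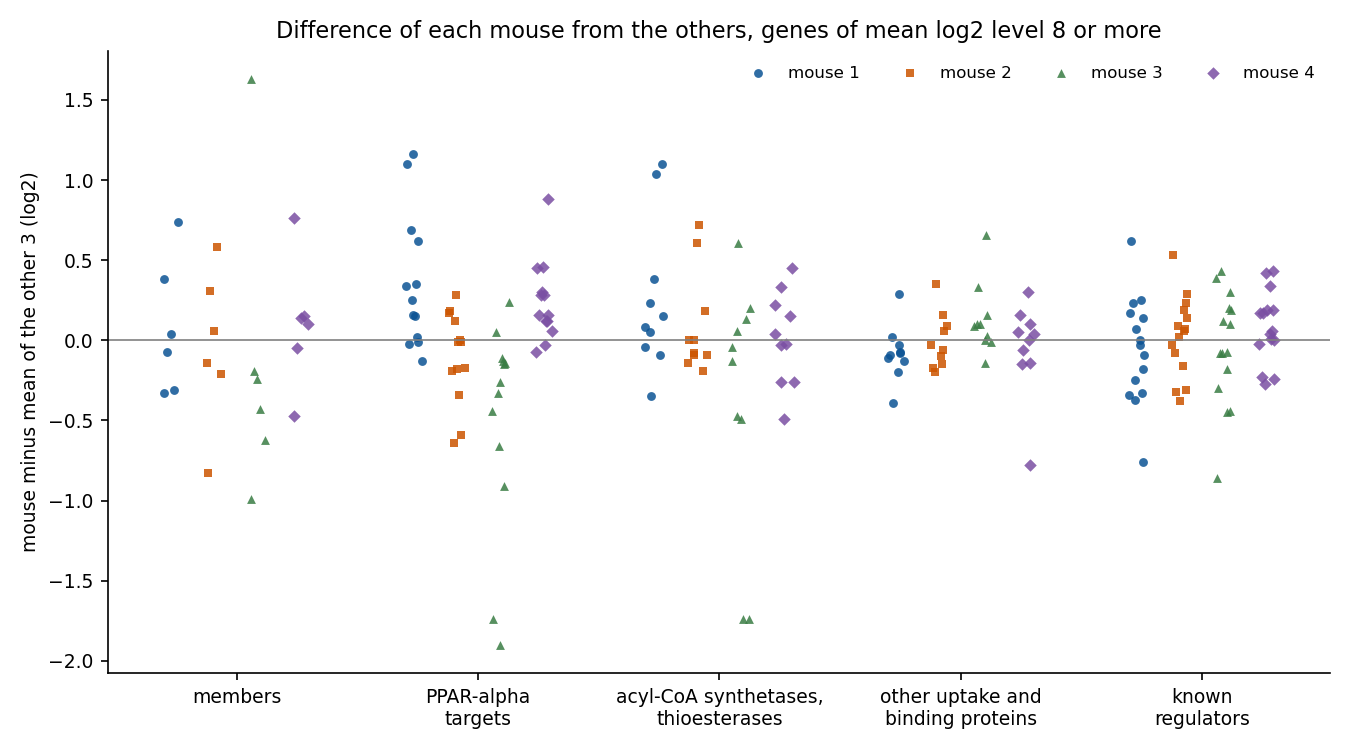
Each mouse minus the mean of the other 3 (y axis, log2) for the main probe set of the 6 members and of the genes in 4 lists with a mean log2 level of 8 or more (x axis), coloured by mouse. In mouse 3, 5 members lie below 0 and Fabp5 at 1.63, and most PPAR-alpha targets lie below 0, down to -1.90 for Cyp4a14.

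The genes whose profile over the 4 mice was closest to that of each member were taken from genes of mean level 8 or more and of similar spread, by the root-mean-square difference of centred log2 values. Closest to Cd36, among 1700 genes, were Ccdc71l (0.093), Kansl1l (0.096), Pigk (0.111), Slc25a47 (0.123) and Tent5c (0.138). Slc25a47, a mitochondrial carrier of liver, measured 14.36, 14.23, 13.59 and 14.67. Closest to Fabp2, among 3044, were Ufd1 (0.040), Abi3bp (0.050), Crat (0.051), Dctn6 (0.076) and 2310039H08Rik (0.085). Crat, carnitine acetyltransferase, measured 10.22, 9.55, 9.21 and 9.65, high in mouse 1 and low in mouse 3 like Fabp2. Closest to Fabp5, among 530, were Uba7 (0.194), Cyp7a1 (0.256), Tspyl4 (0.258), Mmab (0.259) and Knop1 (0.292), and each of these was highest in mouse 3. Cyp7a1, the hydroxylase that opens the classical bile acid pathway, measured 12.80, 12.74, 13.88 and 12.54. Closest to the main Fabp4 probe set, among 4105, were Zfp276 (0.041), Sec23ip (0.056), Socs3 (0.058), Asb3 (0.068) and Ncoa5 (0.068), all highest in mouse 2. For Fabp1 (Phf1, Ifrd1, Ttc1, Zmpste24 and Fam20b) and Slc27a2 (Igfbp2, Cd33, Kansl2, Nek7 and Ces1d) none of the 5 remained among the closest after quantile normalization. With 4 mice and 530 to 5567 genes compared, close profiles are found for any gene, and these names describe the arrays only.

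The arrays had median signals of 267 to 305, and hepatocyte markers were high on all of them. Mouse 1 stood apart by low skeletal muscle markers, and its log2 ratio of the 3-prime to the 5-prime Gapdh control probe set was the lowest, at 1.67 against 1.94 to 2.03. Exocrine pancreas markers were highest in mouse 2 in 6 of 6 genes measured. Mouse 3 had the highest 3-prime to 5-prime ratio for Gapdh, at 2.03 with mouse 4 at 2.00. For Actb it was also highest there, at 2.12 against 1.82 to 2.02. For the pyruvate carboxylase control it was 4.71 in mouse 3, below the 4.79 of mice 2 and 4 and above the 4.09 of mouse 1. Mouse 1 was the lowest for Actb too, at 1.82. The part of RNA quality in the levels of mouse 1 and mouse 3 was not tested. Leaving out mouse 1, 2 or 4 cannot change which members are lowest in mouse 3, so the count of 5 of 6 was not checked that way.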

How the data were processed

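Liver RNA of 4 ABCA1-TG mice was hybridised to 1 array each. RiboAmp amplification, from the poly(A) tail, began with 2 ug of RNA per the labels' protocols. The deposited values are linear signal intensities, 1 per probe set and array. Per the submitters' processing notes RMA was used. Its version and the background step are not given in the sources used here. The values reach down to 0.1 and their mean, trimmed by 2% at each end, is 1000.4 to 1000.5 on every array. Array medians differ by up to 0.192 log2 and sorted values by up to 1.17, where the quantile normalization of RMA leaves arrays nearly alike. An equal trimmed mean is what scaling to a common target gives. The deposited values therefore do not look like RMA output, and how they were made is not settled here. No detection calls were used, so low values are noisy.

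Signals were converted to log2 as deposited, without a pseudocount. Control probe sets (64) were not tested. Genes were named from the platform annotation, and the 6 members kept their symbols in RefSeq. The main probe set of a gene is that of highest mean level. Excess spread was tested with limma 3.58.1 (R 4.3.3) against a robust prior following mean level, with Benjamini-Hochberg adjustment over 22626 probe sets and a threshold of 0.05, and was checked on simulated data. The number of arrays limits the precision, so the absence of probe sets past the test is not evidence that a spread is ordinary. The labels call the mice biological replicates and say no more of their origin.

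The members and lists were chosen with earlier results of these data known. Named genes are the members, the 5 closest profiles of each, other Fabp and Slc27a genes, and from each list the 2 genes of largest and the 1 of smallest SD at a mean level of 8 or more; Ppara, Pparg, Vnn1, Ehhadh, Adipoq, Lep, Cidec, Lipe, Lpl, Retn, Vil1, Lct, Krt genes and Lor were added after their values were seen. In the lists, 4 of 21 other uptake and binding genes, 2 of 15 synthetases and thioesterases, 1 of 18 regulators and 3 of 18 PPAR-alpha targets had no probe set matched by symbol. Alternatives were quantile normalization, a shift to the same median, a floor of 64, a pseudocount of 16, filters on level and on probe set type, other priors, gene means and leaving out each mouse.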

Additional observations from a re-analysis of the deposited data

Results flagged for a closer look

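A search for a mouse far from the other 3 covered 43 probe sets. These measured the members, the list genes taken by SD, other Fabp and Slc27a genes, and adipocyte and squamous markers. Such a mouse was found in 4 of them, where chance gives about 1 in 20, and none of the 13 member probe sets was among the 4. The closest profiles were not searched. Fabp7 measured 4.60 in mouse 2 against 7.40 to 7.67 in the others. Krt1 measured 6.53 in mouse 1 against 7.45 to 7.63, and Lpl 10.55 in mouse 1 against 11.16 to 11.27. Lep measured 5.39 in mouse 2 against 4.08 to 4.29.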

How the results depend on the processing

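The count of 0 probe sets past limma's test of excess spread was 6 when the 16969 probe sets of highest mean level were tested alone, and 0 under the other scalings, floors, filters and priors and without any 1 mouse. At an unadjusted p under 0.05 the count was 839 and became 2342 with signals under 64 raised to 64. The number of members lowest in mouse 3 was 5 of 6 with quantile normalization and with the shift to the same median. With gene means over all probe sets it was 4. The floor, the pseudocount, the filter on probe set type and leaving out another mouse could not change this number. The difference of mouse 3 from the others ran from -1.17 to -0.80 for Cd36, from 1.52 to 1.71 for Fabp5 and from -0.78 to -0.43 for Fabp2. That of Fabp4 was -0.43 and became 0.11 with gene means, and that of Fabp1 in mouse 2 was 0.31 and became -0.13. After quantile normalization 3 of the 5 closest profiles of Cd36 and of Fabp2 stayed among the closest, and 0 of 5 for Fabp1 and Slc27a2. The median of PPAR-alpha targets in mouse 3 ran from -0.36 (without mouse 2) to -0.12, an alternative chosen after seeing the data. No paired analysis was possible because the labels give 1 group. Signals have no replicate arrays of 1 mouse, so array and animal cannot be told apart.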
